A study of Arabidopsis thaliana with 72 samples.

Results

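The transcripts described here are those encoded in the chloroplast and the mitochondrion of Arabidopsis, taken as every row of the count table whose identifier starts with ATCG (133 plastid genes) or ATMG (152 mitochondrial genes). Of these 285 rows among 37336 genes, 48 reached at least 50 counts in at least 1 library and are described, 36 of the plastid and 12 of the mitochondrion. The reference annotation and the study name only some of these identifiers, so most members are given by identifier alone. Neighbouring identifier numbers are used below to group members, with no statement on shared transcription.

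RNA of 25 day-old rosette leaves was sequenced in 72 libraries, 3 for each of 24 groups. The groups were the reciprocal F1 hybrids WsxLer, LerxWs, ColxLer and LerxCol (seed parent written first), the F7 Hybrid Mimics WL_HM1 to WL_HM7 and CL_HM1 to CL_HM6, which are selfed lines selected for a large, hybrid-like rosette, the small lines wl_sml1, wl_sml2, cl_sml1 and cl_sml2 selected for small rosettes, and the parents Ws, Col and Ler. All plants were untreated, without a transgene, and each library of a parent or an F1 pooled 3 plants, whereas each library of an F7 line held 1 plant of 1 selected line. CL_HM5 and CL_HM6 were left out of the main comparisons, as the study left them out for their plant size, and the seed parent of the F7 lines was not given in the sources used here. The replicates of a group are different plants or pools of plants, and for an F7 line they measure the spread between plants of that line.

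Plastids and plant mitochondria keep small genomes of their own, which encode part of the photosynthetic and respiratory complexes together with ribosomal RNAs, transfer RNAs and some ribosomal proteins. In the plastid, a bacterial-type polymerase whose core is plastid-encoded works with sigma factors and associated proteins from the nucleus, and phage-type RNA polymerases, also nuclear, transcribe in both organelles. Organelle transcripts mostly lack the stable poly(A) tail of nuclear mRNA, and in Arabidopsis both genomes are inherited through the seed parent. The libraries were mRNA libraries, so the members are seen as a minor remainder and not at their full abundance.

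The members were a very small part of each library. The 36 plastid members took 0.0111 to 0.0399% of the counts of a library, with a median of 0.0156%, and the 12 mitochondrial members took 0.00237 to 0.0119%, with a median of 0.00473%. In counts, these shares were 2167 to 7117 and 446 to 2296 reads per library. Over all 72 libraries the described members held 89.8% of the counts on ATCG rows and 88.3% of those on ATMG rows. The 6 plastid members with the most counts (ATCG00020, ATCG00480, ATCG00190, ATCG00490, ATCG00680 and ATCG01020) held 45.4% of the ATCG counts, and the 6 mitochondrial ones (ATMG01390, ATMG00020, ATMG00670, ATMG00030, ATMG00660 and ATMG00090) held 80.6% of the ATMG counts. These are shares of reads, not corrected for gene length.

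Of the plastid rows not described, 13 had no count in any library, 41 peaked at 1 to 9 counts and 43 at 10 to 49 counts. Among the mitochondrial rows these numbers were 39, 76 and 25. Members just inside the limit were ATMG00650 with 50 counts at its highest (cl_sml2 replicate 2) and ATCG00430 with 52 (Ws replicate 2), and just outside were ATCG00160 with 47 and ATCG01050 with 44. Only 9 plastid and 2 mitochondrial members had 50 counts or more in every library, so most of the values below rest on few reads.

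For 45 mitochondrial identifiers the reference notes give a nuclear protein of the AT2G07 rows as the closest match, a stretch of chromosome 2 that holds a copy of mitochondrial DNA. None of these 45 was among the described members, and the highest count of any of them in a library was 20. Reads that map to more than 1 place were not counted for a gene. The 149 nuclear rows from AT2G07660 to AT2G07835 took 0.00300 to 0.00789% of the counts, and 6 of them reached 50 counts in a library. For the plastid, 6 identifiers are named this way and 3 of them were described: ATCG00670 (plastid-encoded CLP P, the proteolytic subunit of the Clp protease), ATCG00530 (related to the proton extrusion protein CemA) and ATCG00430 (named photosystem II reaction center protein G). The function of ATMG00670 is given as unknown.

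Library totals were 17741358 to 28527725 counts, and no pair of replicate libraries agreed within the sampling noise of counts (lowest chi-square per degree of freedom 4.05). The leaf genes RBCS1A, LHCB2.1, CA1 and RCA were abundant in the parents, the F1 and the F7 lines compared. The 3 root hair markers were at or near 0 (RHD6 had no count in the parents, the F1 or the F7 lines compared), and the senescence marker SAG12 peaked at 25.6 normalized counts, in a Col/Ler small line. The normalized count used throughout is the count scaled by TMM to the mean library total. A member was called where the adjusted p of edgeR's quasi-likelihood test was at or under 0.05.

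**Figure D1:**
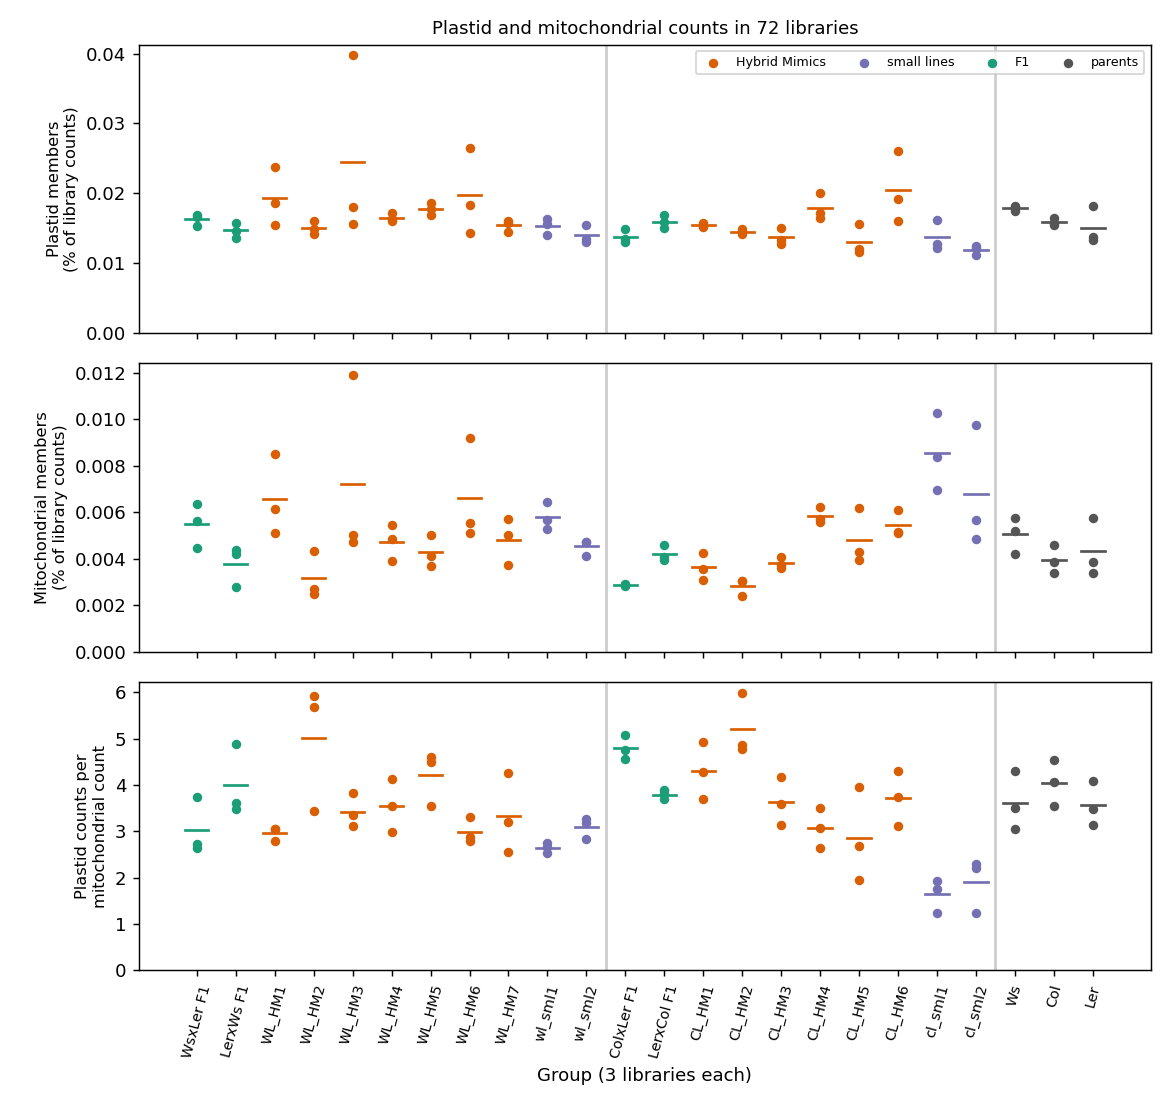
Share of library counts on the 36 plastid members (top) and the 12 mitochondrial members (middle), and plastid counts per mitochondrial count (bottom), for the 3 libraries (points) of each of 24 groups on the x axis, with the group mean as a bar. WL_HM3 replicate 2 was highest for both organelles (0.0399% and 0.0119%), and the libraries of cl_sml1 and cl_sml2 had a plastid count per mitochondrial count of 1.24 to 2.29, below every other library but 1 of CL_HM5 (1.94).

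Some libraries stood apart in organelle counts. WL_HM3 replicate 2 had the highest share of both organelles, and 13 plastid and 3 mitochondrial members had at least 2 times the mean of the other libraries of that line. ATCG01180 was the member most raised there (5.02-fold). In WL_HM6 replicate 1 this held for 8 plastid and 4 mitochondrial members, with ATCG00020 3.48-fold above the others. In Ler replicate 3 it held for 9 plastid and 2 mitochondrial members. ATCG00020, ATCG00920, ATCG00950, ATCG01180 and ATMG00020 were among these members in all 3 libraries.

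The nuclear 18S rRNA gene AT3G41768, whose RNA also lacks a poly(A) tail, was raised in these 3 libraries too. It was 2.73-fold above the other libraries of its line in WL_HM3 replicate 2, 1.71-fold in WL_HM6 replicate 1 and 2.19-fold in Ler replicate 3. The 18S rRNA gene was 1.90-fold above the other libraries of its line in WL_HM1 replicate 3, where 1 plastid and 1 mitochondrial member were raised at least 2 times, and 1.14-fold in CL_HM6 replicate 2, where 4 plastid members were. Over all libraries this gene took 0.0182 to 0.0962% of the counts. The part of RNA selection in the differences between libraries was not tested. In cl_sml2 replicate 2, 5 mitochondrial and 0 plastid members were raised at least 2 times, ATMG01360 by 6.70-fold, while AT3G41768 was at 0.803 times the other libraries of that line.

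Between the parents, the question was which organelle transcripts differ in counts when both genomes of the organelles come from different accessions. Reads of every accession were mapped to the same TAIR10 reference. The part of sequence differences between accessions in the parental and reciprocal counts was not tested. Against Ler, Ws had 6 members higher and 2 lower of 38 tested, beside 13.1% of all 17403 genes higher and 14.1% lower. The members higher in Ws were ATCG00070, ATCG00220, ATCG00670, ATCG00680, ATCG01020 and ATMG01360, and those lower were ATCG00480 and ATMG00670. ATCG00670 and ATMG01360 reached 50 counts in no parent or F1 library other than those of Ws, and ATMG00670 in none other than those of Ler, so these 3 were tested only through the parent in which they were high. Of the 34 members that entered another way, 4 were higher and 1 lower in Ws.

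ATCG00670, the Clp protease member, had 64.3, 73.9 and 69.8 normalized counts in Ws, against 20.7, 29.0 and 38.5 in Ler. The groups did not overlap (log2 fold change 1.23, SE 0.23, adjusted p = 0.000754 by edgeR). ATCG00070 had 173, 149.7 and 93.9 normalized counts in Ws, against 48.3, 65.6 and 89.8 in Ler. The lowest Ws library was close to the highest Ler library (log2 fold change 1.02, SE 0.26, adjusted p = 0.00752 by edgeR). ATCG01020 had 204, 315 and 259 normalized counts in Ws, against 123, 118 and 199.7 in Ler (log2 fold change 0.81, SE 0.19, adjusted p = 0.00522 by edgeR).

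Both falls were clear of overlap. ATCG00480 had 329, 304 and 365 normalized counts in Ws, against 428, 633 and 622 in Ler (log2 fold change -0.76, SE 0.13, adjusted p = 0.000251 by edgeR). ATMG00670 had 26.9, 31.7 and 24.1 normalized counts in Ws, against 59.1, 68.8 and 83.4 in Ler, so every Ler library was above every Ws library (log2 fold change -1.36, SE 0.27, adjusted p = 0.00124 by edgeR). The number of members called between Ws and Ler was 16 without Ler replicate 3, the library with raised 18S rRNA, and 5 without Ler replicate 2 or without Ws replicate 2. It was 3 when only the Ws and Ler libraries entered the fit, where ATCG00070 and ATCG01020 were no longer called.

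Col differed from Ler in 2 members, beside 9.37% of all genes higher and 8.91% lower. ATCG01020 had 283, 289.5 and 264 normalized counts in Col, against 123, 118 and 199.7 in Ler (log2 fold change 0.91, SE 0.20, adjusted p = 0.00280 by edgeR). ATMG00670 had 26.3, 37.9 and 22.9 normalized counts in Col, against 59.1, 68.8 and 83.4 in Ler (log2 fold change -1.29, SE 0.27, adjusted p = 0.00237 by edgeR). ATMG00670 was again tested only through Ler, the parent in which it was high. Of the 37 members that entered another way, only ATCG01020 was called. For ATCG01020 and ATMG00670, Ws and Col lay on the same side of Ler. The Ler libraries are shared by both comparisons, so these are not independent.

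**Figure D2:**
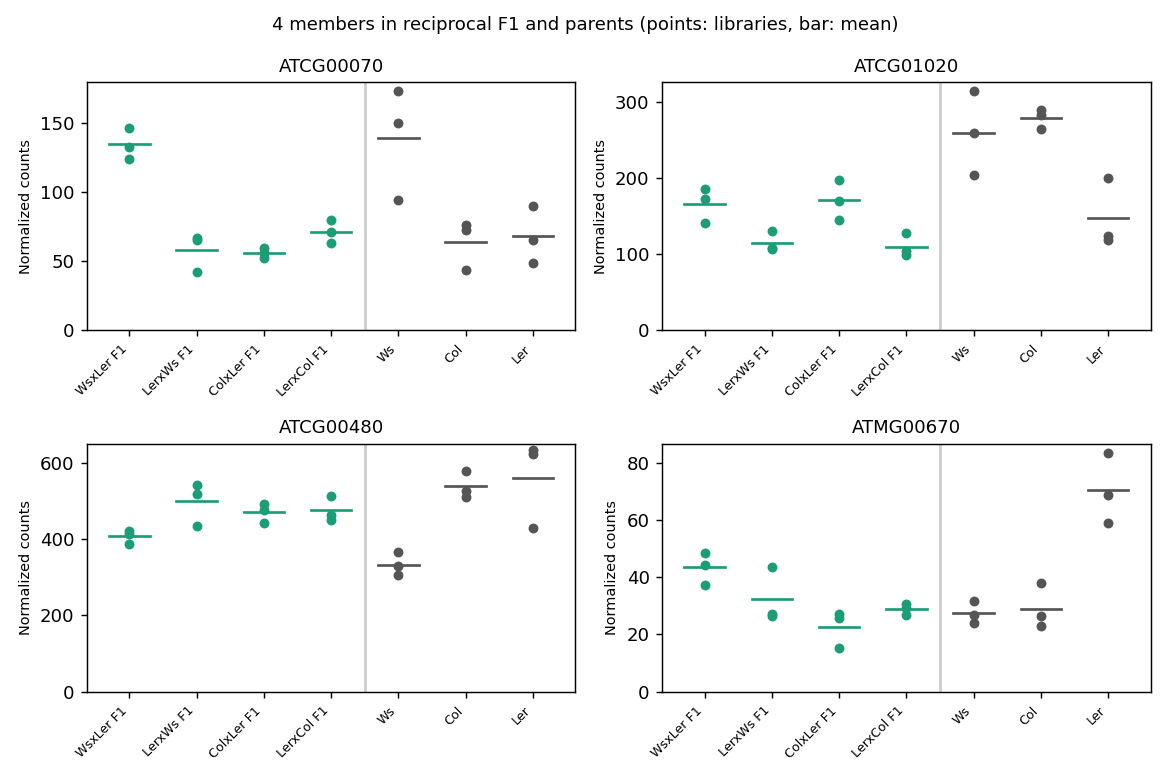
Normalized counts (y axis) of ATCG00070, ATCG01020, ATCG00480 and ATMG00670 in the 3 libraries (points) of each reciprocal F1 and each parent (x axis), with the group mean as a bar. ATCG00070 was higher in all 3 WsxLer libraries (124 to 146) than in all 3 LerxWs libraries (42.0 to 67.0).

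Reciprocal F1 hybrids share their nuclear genotype and differ in the seed parent, and so in the organelle genomes. No member was called between WsxLer and LerxWs or between ColxLer and LerxCol by edgeR or by DESeq2, and 0% of all 17403 genes were called in either comparison by edgeR (DESeq2 called 3 genes in the first and 0 in the second). At an unadjusted p at or under 0.05, edgeR had 7 of 38 members in the first comparison, beside 1.65% of all genes, and 6 in the second, beside 0.707%. In the first, 11 of 38 members (28.9%) had all WsxLer libraries above all LerxWs libraries, beside 1.92% of all genes, and 2 (5.26%) had all below, beside 2.44%. In the second, 1 member (2.63%) had all ColxLer libraries above all LerxCol libraries, beside 2.84% of all genes, and 10 (26.3%) had all below, beside 3.19%. The members of a library are not independent of each other. AT3G41768 averaged 0.0331% of counts in WsxLer and 0.0296% in LerxWs, and 0.0254% in ColxLer and 0.0400% in LerxCol. The part of RNA selection in these counts was not tested.

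Of the 8 members called between Ws and Ler, ATCG00070, ATCG00480 and ATCG01020 had reciprocal F1 groups that did not overlap, in each case with the F1 on the side of its seed parent. Over all 38 members tested, 11 had all WsxLer libraries above all LerxWs libraries and 2 had all below. Such an order was therefore not particular to members that differed between the parents, and ATCG00070 and ATCG01020 went in the more common direction. ATCG00070 had 132, 124 and 146 normalized counts in WsxLer, against 65.1, 42.0 and 67.0 in LerxWs (log2 fold change 1.20, SE 0.26, unadjusted p = 0.000244, adjusted p = 1.0 by edgeR). ATCG00480 had 421, 414 and 386 in WsxLer, against 519, 435 and 541 in LerxWs (log2 fold change -0.30, SE 0.13). ATCG01020 had 172, 141 and 185 in WsxLer, against 108, 129.8 and 107 in LerxWs (log2 fold change 0.52, SE 0.20).

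ATCG01020 followed the same order in the Col/Ler cross, with 197, 169.9 and 145 normalized counts in ColxLer, against 127, 104 and 98.5 in LerxCol (log2 fold change 0.64, SE 0.20, unadjusted p = 0.00476, adjusted p = 1.0 by edgeR). The other parental differences did not repeat between reciprocal hybrids beyond the spread. ATCG00670 had 29.0, 25.9 and 31.4 in WsxLer, against 27.0, 22.4 and 23.1 in LerxWs, so the F1 groups overlapped and all 6 libraries were below the lowest Ws library. ATMG00670 had 37.3, 48.6 and 44.5 in WsxLer, against 43.8, 27.1 and 26.4 in LerxWs, again with overlap, and its mean was higher in the F1 with Ws as seed parent although Ws itself was lower than Ler. ATCG00080, next to ATCG00070 in number, had 54.9, 63.1 and 66.1 in WsxLer, against 33.7, 44.8 and 31.9 in LerxWs, and it was not called between Ws and Ler (adjusted p = 0.122 by edgeR).

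Against the mid-parent value (MPV), few members were called in the F1 hybrids. Both reciprocal F1 of a cross were taken as a common group of 6 libraries here. Their organelle genomes differ, so a difference between them adds to the spread, and an effect in only 1 of them can be missed. The MPV is here the sum of a library of each parent, scaled to the same size. An MPV library thus holds the counts of both parents and reaches the minimum count for a fit more easily than an F1 library. In Ws/Ler, ATCG00430, ATCG00800, ATMG00090, ATMG00690 and ATMG01370 reached the minimum only in MPV libraries. ATCG00670 reached it in Hybrid Mimic and MPV libraries but in no F1 library. In Ws/Ler no member of 45 was called by edgeR, beside 0.281% of all 18146 genes, with 5 at an unadjusted p at or under 0.05, beside 8.87% of all genes. DESeq2 called 1 member, ATCG00670 (log2 fold change -0.89, adjusted p = 0.0495), which edgeR gave at -0.88 with an adjusted p of 0.142. All 6 Ws/Ler F1 libraries of ATCG00670 (22.4 to 31.4 normalized counts) were below the Ws libraries and within the range of Ler.

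In Col/Ler 1 of 47 members was called, beside 0.407% of all 17919 genes. ATCG00080, ATCG00150, ATCG00430, ATCG00450, ATCG00670, ATCG00720, ATCG00740, ATCG00780 and ATCG00800 reached the minimum only in MPV libraries. ATMG00670, the member called, reached it in MPV, Hybrid Mimic and small line libraries but in no F1 library. ATMG00670 had 25.7, 15.2 and 27.1 normalized counts in ColxLer and 29.1, 26.9 and 30.6 in LerxCol, against 26.3, 37.9 and 22.9 in Col and 59.1, 68.8 and 83.4 in Ler. The F1 lay at the level of Col and below the MPV (log2 fold change -0.94, SE 0.21, adjusted p = 0.046 by edgeR). This call was lost on leaving out any F1 or MPV library and under 5 of the other 7 settings. Of the 12 mitochondrial members, 6 had an unadjusted p at or under 0.05 in this comparison, beside 7.14% of all genes.

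Summed over members, no difference between the F1 and the parents passed the test. The plastid share was 0.0155 ± 0.00122% in the Ws/Ler F1 and 0.0165 ± 0.00229% in Ws and Ler (SD, n = 6 each, two-sided exact permutation p = 0.338, adjusted p = 0.540). In Col/Ler it was 0.0148 ± 0.00146% in the F1 and 0.0155 ± 0.00175% in Col and Ler (SD, n = 6 each, exact permutation p = 0.528). The mitochondrial share was 0.00463 ± 0.00124% in the Ws/Ler F1 and 0.00469 ± 0.00102% in the parents (SD, n = 6 each, exact permutation p = 0.937). In Col/Ler it was 0.00353 ± 0.000762% in the F1 and 0.00414 ± 0.000909% in the parents (SD, n = 6 each, exact permutation p = 0.249). The F1 sets pool both reciprocal F1, the parental sets pool both parents, and the Ler libraries enter both systems.

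The largest differences were between Hybrid Mimics and small lines, the F7 lines selected from the same crosses for opposite plant sizes. The edgeR p-values and SE of these comparisons rest on the spread between libraries within a group, such as plants of 1 line. They do not measure the spread between lines selected for the same size. With lines as units, an exact permutation test can give no p under 0.0278 in Ws/Ler or 0.0667 in Col/Ler. In Ws/Ler, 25 of 45 members (55.6%) were higher in Hybrid Mimics and 4 (8.89%) lower, beside 33.9% and 37.2% of all 18146 genes. The plastid members made up 23 of the 25 that were higher and 2 of the 4 that were lower. ATCG00770 reached the minimum only in WL_HM1 replicate 3 (58 counts). Over the other 44 members 24 were higher and 4 lower, with a median log2 fold change of 0.70 for the 35 plastid and -0.18 for the 9 mitochondrial members, against -0.03 for all genes. Among these 44, ATCG00150, ATCG00540, ATCG00670, ATCG00720, ATCG00740, ATCG00780 and ATCG00920 reached the minimum only in Hybrid Mimic and MPV libraries. ATMG00660 and ATMG01360 reached it only in small line and MPV libraries. In Col/Ler, 22 of 47 members (46.8%) were higher in Hybrid Mimics and 11 (23.4%) lower, beside 35% and 36% of all 17919 genes. There all 22 that were higher were plastid members and all 11 that were lower were mitochondrial. However, 5 mitochondrial members (ATMG00160, ATMG00640, ATMG00650, ATMG00690 and ATMG01360) reached the minimum only in small line libraries, the first 3 of them only in cl_sml2 replicate 2, and 4 of the 5 were called lower. Over the other 42 members 22 were higher and 7 lower, with a median log2 fold change of 0.46 for the 35 plastid and -0.81 for the 7 mitochondrial members, against -0.01 for all genes. Among these 42, ATCG00630 reached the minimum only in Hybrid Mimic and MPV libraries. ATMG00090, ATMG00660 and ATMG01370 reached it only in small line and MPV libraries.

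The 18S rRNA gene AT3G41768 had line means of 6859 to 12429 normalized counts in the 7 Ws/Ler Hybrid Mimics, against 6647 in wl_sml1 and 6153 in wl_sml2, so all 7 lines were above both small lines. In Col/Ler its line means were 5318 to 7754 in the 4 Hybrid Mimics, against 7765 in cl_sml1 and 7461 in cl_sml2. Its part in the member results was not tested.

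These directions are relative to the scaling. With library totals in place of TMM, the median of all genes shifted to -0.23 in Ws/Ler and -0.26 in Col/Ler, and the members called were 19 higher and 5 lower in Ws/Ler and 10 higher and 14 lower in Col/Ler. With each organelle scaled to its own summed counts, 14 were higher and 11 lower in Ws/Ler, and 8 higher and 11 lower in Col/Ler. Of these, 13 plastid members were higher and 9 lower in Ws/Ler, and 7 higher and 5 lower in Col/Ler. Scaling to the own sum sets members of an organelle against each other, so the presence of both directions follows from the scaling. The calls show only that the plastid members did not all change by the same factor.

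**Figure D3:**
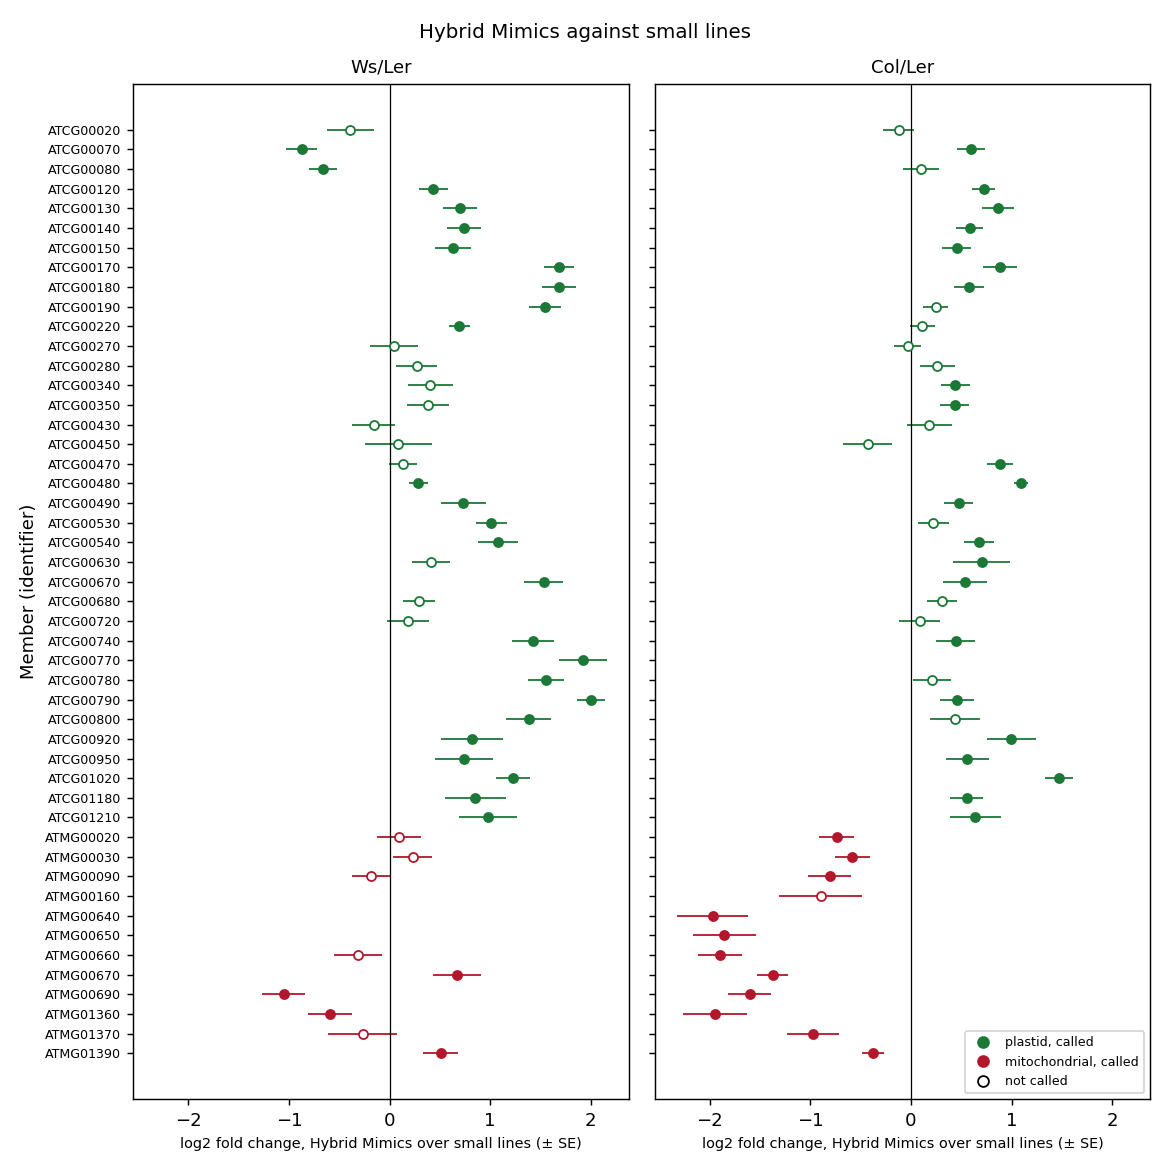
Log2 fold change of Hybrid Mimics over small lines (x axis, bars are ± SE) for each member tested (y axis, in order of identifier), in Ws/Ler (left) and Col/Ler (right), with filled points for members called and open points for the others. In Ws/Ler the members from ATCG00170 to ATCG00190 and from ATCG00740 to ATCG00800 lay at 1.38 to 2.00, and in Col/Ler every mitochondrial member tested lay below 0, the 5 that reached the minimum only in small lines among them. In Ws/Ler, ATCG00740 and ATCG00780 reached the minimum only in Hybrid Mimic and MPV libraries, ATCG00770 only in WL_HM1 replicate 3 and ATCG00800 only in MPV replicate 3.

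In Ws/Ler the largest rises fell on 2 runs of neighbouring plastid identifiers. The first was ATCG00170, ATCG00180 and ATCG00190, with log2 fold changes of 1.68, 1.68 and 1.55. The second was ATCG00740, ATCG00780, ATCG00790 and ATCG00800, with 1.42, 1.56, 2.00 and 1.38. ATCG00740 and ATCG00780 reached the minimum only in Hybrid Mimic and MPV libraries, and ATCG00800 only in MPV replicate 3. Between them, ATCG00670 (Clp protease) had 1.53, ATCG00540 had 1.08 and ATCG00530 (CemA-related) had 1.01, whereas ATCG00680 and ATCG00720 were not called (0.30 and 0.19).

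ATCG00790 had 48.4 to 152.7 normalized counts in the 21 Hybrid Mimic libraries, with a median of 94.9, against 24.3, 35.7 and 32.1 in wl_sml1 and 15.4, 17.5 and 18.6 in wl_sml2. No library of the groups overlapped (log2 fold change 2.00, SE 0.14, adjusted p = 3.88e-13 by edgeR). ATCG00170 had 53.6 to 190.9 normalized counts in Hybrid Mimics, with a median of 120.1, against 46.5, 43.9 and 50.5 in wl_sml1 and 25.7, 25.4 and 26.2 in wl_sml2 (log2 fold change 1.68, SE 0.15, adjusted p = 1.02e-10 by edgeR). ATCG00180 had 67.3 to 214.2 in Hybrid Mimics, with a median of 123.3, against 37.4, 39.3 and 49.5 in wl_sml1 and 24.0, 35.0 and 42.3 in wl_sml2 (log2 fold change 1.68, SE 0.17, adjusted p = 9.06e-10 by edgeR). For ATCG00790 the 6 Ws/Ler F1 libraries had 48.8 to 69.1, within the range of the Hybrid Mimics but below their median, and above every small line library.

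The lines, not the plants, are the units selected. All 7 Hybrid Mimic line means lay above both small line means for 18 of 45 members (40.0%), beside 25.9% of all genes, and below both for 2 members (4.44%), ATCG00070 and ATMG00690, beside 25.9%. For ATCG00790 the line means were 66.4 to 132 in Hybrid Mimics, lowest in WL_HM6 and highest in WL_HM3, against 30.7 in wl_sml1 and 17.2 in wl_sml2. Without the 3 Hybrid Mimic libraries of highest plastid share (WL_HM1 replicate 3, WL_HM3 replicate 2 and WL_HM6 replicate 1), 23 of 44 members were higher and 5 lower.

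ATCG00070 went the other way, with 39.2 to 134.0 normalized counts in Hybrid Mimics and a median of 78.6, against 138, 148 and 147 in wl_sml1 and 121, 133 and 142 in wl_sml2. Its line means were 85.4, 89.8, 118 and 98.2 in WL_HM1 to WL_HM4 and 54.9, 58.8 and 52.1 in WL_HM5 to WL_HM7 (log2 fold change -0.87, SE 0.15, adjusted p = 1.31e-05 by edgeR). ATCG00480 had line means of 302, 370.0, 369.7 and 329 in WL_HM1 to WL_HM4 and 628, 455 and 501 in WL_HM5 to WL_HM7, against 409 in wl_sml1 and 269 in wl_sml2. Its log2 fold change was 0.29 (SE 0.09, adjusted p = 0.00831 by edgeR), and -0.02 against wl_sml1 alone. WL_HM5 to WL_HM7 thus had the 3 highest Hybrid Mimic line means of ATCG00480 and the 3 lowest of ATCG00070.

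ATMG00670 also varied more between lines than between the selected types. Its line means were 62.7, 49.7, 28.3 and 47.5 normalized counts in WL_HM1 to WL_HM4 and 117, 105 and 89.5 in WL_HM5 to WL_HM7, against 140 in wl_sml1 and 11.4 in wl_sml2. The call in Hybrid Mimics (log2 fold change 0.67, SE 0.24, adjusted p = 0.0151 by edgeR) turned to -1.13 against wl_sml1 alone and was 2.47 against wl_sml2 alone. ATMG00690 had 2.6 to 20.9 normalized counts in Hybrid Mimics, with a median of 10.2, against 18.2, 34.7 and 35.8 in wl_sml1 and 18.8, 13.5 and 13.5 in wl_sml2 (log2 fold change -1.05, SE 0.21, adjusted p = 7.15e-05 by edgeR).

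**Figure D4:**
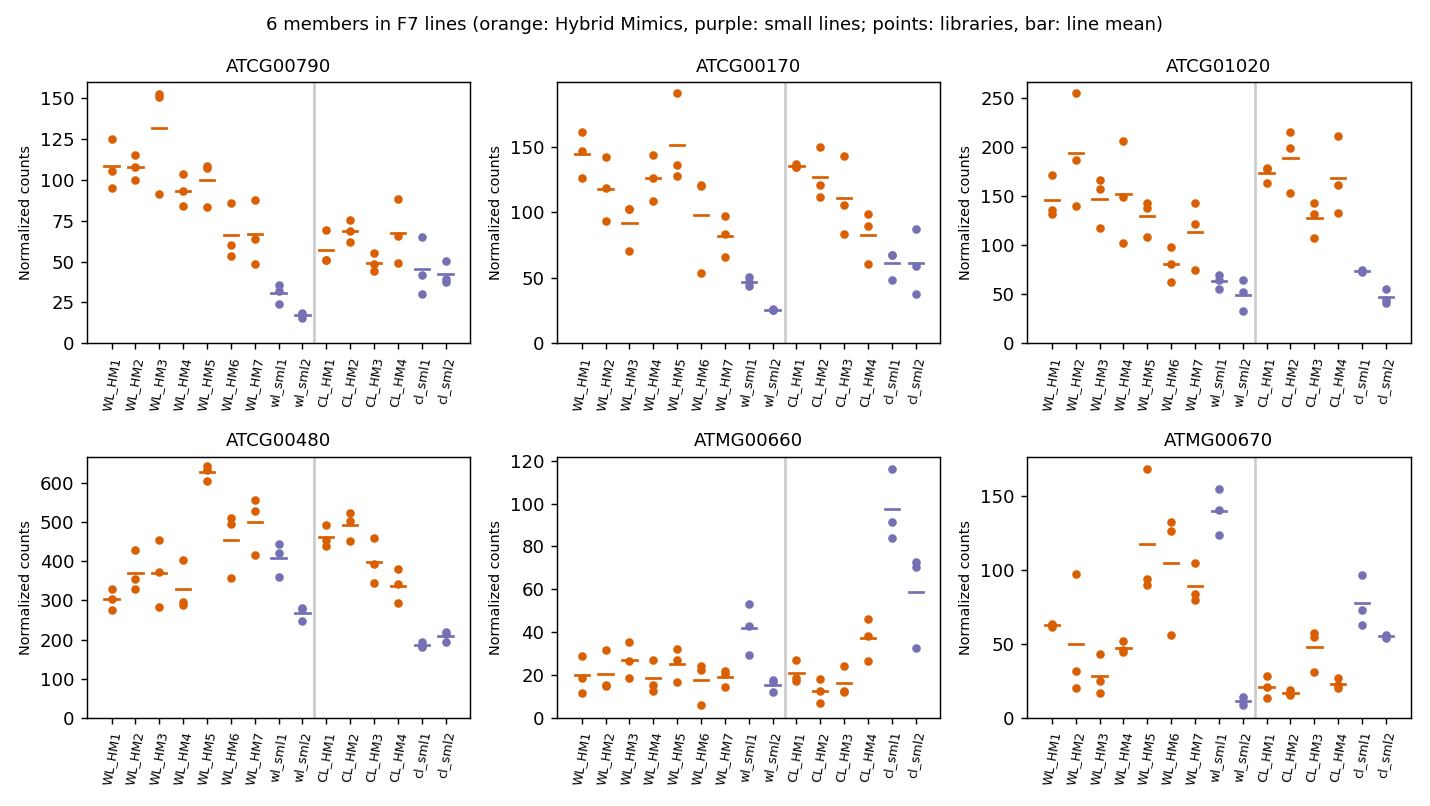
Normalized counts (y axis) of ATCG00790, ATCG00170, ATCG01020, ATCG00480, ATMG00660 and ATMG00670 in the 3 libraries (points) of each Hybrid Mimic line and each small line (x axis), with the line mean as a bar, Ws/Ler to the left of Col/Ler. ATMG00670 had a line mean of 140 in wl_sml1 and 11.4 in wl_sml2, and both Col/Ler small lines were above all 4 Col/Ler Hybrid Mimic lines.

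In Col/Ler the largest plastid rises were those of ATCG01020, ATCG00480 and ATCG00920 (log2 fold changes 1.47, 1.09 and 0.997). ATCG01020 had 107.6 to 214.9 normalized counts in the 12 Hybrid Mimic libraries, with a median of 162.0, against 74.9, 73.1 and 73.8 in cl_sml1 and 41.1, 44.5 and 55.2 in cl_sml2. The groups did not overlap (log2 fold change 1.47, SE 0.14, adjusted p = 3.51e-09 by edgeR). In Ws/Ler the same member had a log2 fold change of 1.23, with 62.2 to 254.6 in Hybrid Mimics, against 32.6 to 69.7 in small lines. It was the only member called in both parental comparisons with a rise and in both comparisons of F7 lines.

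ATCG00480 had 293 to 522 normalized counts in Col/Ler Hybrid Mimics, with a median of 445, against 185, 194 and 181 in cl_sml1 and 214, 220.0 and 194 in cl_sml2 (log2 fold change 1.09, SE 0.07, adjusted p = 2.65e-12 by edgeR). Col, Ler and their F1 all had 428 to 633. Every small line library was below this range, and the lowest Hybrid Mimic libraries were below it too, though above every small line library. ATCG00470, next to it in number, had 39.9 to 71.6 in Hybrid Mimics, against 27.1 to 39.9 in small lines (log2 fold change 0.88, SE 0.13, adjusted p = 1.77e-06 by edgeR). ATCG00170 and ATCG00180 were higher in Hybrid Mimics here too (0.89 and 0.58), while ATCG00190, at 0.25, was not called.

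The mitochondrial members were lower in Col/Ler Hybrid Mimics. ATMG00660 and ATMG00670, neighbours in number, had log2 fold changes of -1.90 and -1.37. ATMG00660 had 7.0 to 46.1 normalized counts in Hybrid Mimics, with a median of 18.5, against 91.4, 84.1 and 116 in cl_sml1 and 70.3, 72.8 and 32.6 in cl_sml2 (adjusted p = 7.55e-08 by edgeR). Only the third cl_sml2 library fell in the range of the Hybrid Mimics. Without cl_sml2 replicate 2, where several mitochondrial members were raised, 19 members were higher and 8 lower. The log2 fold change was then -1.80 for ATMG00660. It was -1.18 for ATMG01360 (-1.95 with that library), a member tested only through the small lines. ATMG00690, tested only through the small lines, had 5.0 to 23.1 in Hybrid Mimics, against 58.5, 35.1 and 55.9 in cl_sml1 and 27.4, 49.1 and 23.5 in cl_sml2, with no overlap (adjusted p = 5.95e-07 by edgeR). The most counted member, ATMG01390, changed least, with 233 to 571 in Hybrid Mimics, against 386 to 754 in small lines (log2 fold change -0.38, SE 0.11, adjusted p = 0.00457 by edgeR), and it was higher (0.30) when mitochondrial members were scaled to their own sum.

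By lines, 15 of 47 members (31.9%) had all 4 Col/Ler Hybrid Mimic line means above both small line means, beside 28.8% of all genes, and 8 (17.0%) had all below, beside 28.5%. All 15 were plastid and all 8 mitochondrial, and 5 of the 8 were the members that reached the minimum only in small lines. Against cl_sml1 alone 8 members were higher and 11 lower, and against cl_sml2 alone 23 were higher and 7 lower. With CL_HM5 and CL_HM6 among the Hybrid Mimics 24 were higher and 11 lower. CL_HM5 had 76.4 normalized counts of ATCG01020 on average, close to the 74.0 of cl_sml1, and CL_HM6 had 179. CL_HM6 had the highest mean of ATCG00790 among Col/Ler lines (123).

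The plastid count per mitochondrial count does not depend on the scaling of libraries. It was 2.65 to 5.98 in the 12 Col/Ler Hybrid Mimic libraries, with a median of 3.94, against 1.24 to 2.29 in the 6 small line libraries, with a median of 1.85. In Ws/Ler it was 2.55 to 5.92 in Hybrid Mimics, with a median of 3.34, and 2.53 to 3.27 in small lines, with a median of 2.79, so those sets overlapped. The summed mitochondrial share was 0.00402 ± 0.00128% over 4 Col/Ler Hybrid Mimic lines and 0.00765 ± 0.00126% over 2 small lines (SD over lines, two-sided exact permutation p = 0.0667, the smallest this design can give, adjusted p = 0.444). Of the 12 mitochondrial members in this share and in the ratio, 5 reached the minimum in Col/Ler only in small line libraries. The share and the ratio without these 5 were not tested. The summed plastid share was 0.0154 ± 0.00180% over the 4 Hybrid Mimic lines and 0.0128 ± 0.00128% over the 2 small lines (exact permutation p = 0.133).

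In Ws/Ler the summed plastid share was 0.0183 ± 0.00327% over 7 Hybrid Mimic lines and 0.0146 ± 0.000943% over 2 small lines (SD over lines, exact permutation p = 0.167). Without ATCG00020, the member with the most counts, the unadjusted exact permutation p was 0.0278, the smallest this design can give. ATCG00020 itself had 232 to 2044 normalized counts in Ws/Ler Hybrid Mimics, with a median of 340.3, against 416 to 653 in small lines, and it was called in neither system. The summed mitochondrial share was 0.00534 ± 0.00148% over the Hybrid Mimic lines and 0.00516 ± 0.000901% over the small lines (exact permutation p = 0.889).

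The difference between Hybrid Mimics and small lines was itself set against that of the other cross in a fit of both crosses. It differed between the crosses for 22 of 46 members, beside 43.5% of all 18145 genes, so the members were near the share of all genes. Of the 22, 6 reached the minimum in 1 kind of line of 1 cross only, ATCG00670, ATCG00740, ATCG00770 and ATCG00780 in Ws/Ler Hybrid Mimics and ATMG00640 and ATMG00650 in a Col/Ler small line. For another 6 mitochondrial members (ATMG00020, ATMG00030, ATMG00660, ATMG00670, ATMG01360 and ATMG01390) the log2 fold change was higher in Ws/Ler than in Col/Ler, by 0.83 to 2.06. Of these, ATMG00660 and ATMG01360 reached the minimum in this fit only in small line libraries, those of both crosses. For another 6 plastid members it was also higher in Ws/Ler, ATCG00790 by 1.57, ATCG00190 by 1.32 and ATCG00180 by 1.12. For 4 plastid members (ATCG00070, ATCG00080, ATCG00470 and ATCG00480) it was lower in Ws/Ler, by -1.45 for ATCG00070. Each cross has 2 small lines, so a difference between crosses and a difference between these lines cannot be told apart.

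Nuclear genes that serve organelle expression moved in the same comparisons. Of 28 such genes, 19 were higher and 5 lower in Ws/Ler Hybrid Mimics, and 22 were higher and 2 lower in Col/Ler Hybrid Mimics, beside the shares of all genes given above. Of the 12 genes for proteins bound to the plastid-encoded polymerase, 10 were higher and 2 lower in Ws/Ler, and 11 were higher and 1 lower in Col/Ler. The rises were led by FLN2 (log2 fold change 1.59 in Ws/Ler and 1.43 in Col/Ler), a fructokinase-like protein. Of the 3 other polymerase genes listed, 2 were higher and 0 lower in Ws/Ler, and 1 was higher and 0 lower in Col/Ler. RPOTp, the plastid phage-type polymerase, was higher by 0.72 and 0.53. RPOTm, the mitochondrial one, was 0.36 higher in Ws/Ler and at 0.02 in Col/Ler, where it was not called.

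Of the 6 sigma factors, 3 were higher and 2 lower in Ws/Ler Hybrid Mimics, and 4 were higher and 1 lower in Col/Ler Hybrid Mimics. Among them SIG5, which is induced by light and stress, was higher by 1.45 in Ws/Ler and 0.42 in Col/Ler. SIG4 was lower by -0.76 and -0.17. Of the 7 genes of RNA turnover, 4 were higher and 1 lower in Ws/Ler, and 6 were higher and 0 lower in Col/Ler. Among them mtPNPase, the mitochondrial polynucleotide phosphorylase that degrades polyadenylated RNA, was higher by 1.01 in Ws/Ler and 0.58 in Col/Ler. The plastid RNA-binding proteins CSP41A and CSP41B were higher by 1.26 and 1.31 in Col/Ler. In both reciprocal comparisons and in both comparisons of F1 with MPV no gene of these 28 was called.

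Markers of tissue moved with the F7 comparisons as well. The leaf gene LHCB2.1, a light-harvesting protein, had 33223 to 70228 normalized counts in Ws/Ler Hybrid Mimics, against 2282 to 7673 in small lines, and 52482 to 142138 in Col/Ler Hybrid Mimics, against 20344 to 29840 in small lines. Of the 4 leaf genes, 3 were higher in Ws/Ler Hybrid Mimics and all 4 in Col/Ler Hybrid Mimics. Of the 4 flower genes tested in Ws/Ler, 1 was lower in Hybrid Mimics (SEP3, -2.00) and 1 higher (AG, 1.41), and PI and AP3 were not called. SEP3 had 4.6 to 92.4 normalized counts in Ws/Ler Hybrid Mimics, against 43.5 to 357.6 in wl_sml1 and wl_sml2. In Col/Ler only 1 flower gene was tested, SEP3, and it was lower (-1.15). AG, not tested there, had a median of 10.7 in Col/Ler Hybrid Mimics, against 2.8 in small lines. AP3, which specifies petals and stamens, had 0.0 to 56.1 in Ws/Ler Hybrid Mimics, with a median of 1.1, against 0.0 to 4.0 in small lines. The part of tissue makeup in the member results was not tested, and in these bulk leaf samples fewer cells or organelles and less RNA in each cannot be told apart.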

How the data were processed

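The deposited table holds raw counts, one row per gene. The authors made it by mapping 150 bp read pairs with STAR 2.5.3a to TAIR10, using Araport11 gene models and counting only reads with 1 map position. Which strand column was taken was not given in the sources used here, so rows that overlap an antisense gene may be mixed.

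Tests used edgeR 4.0.16 in R 4.3.3 (TMM, quasi-likelihood). A gene entered a fit when some library of that fit had 50 counts or more, and p-values were adjusted by Benjamini-Hochberg over every gene in the fit. Of the 48 members, 38 were tested among parents and F1 (21 libraries), 45 in Ws/Ler (36 libraries, 3 of them in-silico MPV) and 47 in Col/Ler (27 libraries). An MPV library was the sum of same-numbered parental libraries scaled to their mean size, so it held the counts of both. In the Ws/Ler and Col/Ler fits both reciprocal F1 of the cross formed a common group. Lines had equal weight. Organelle shares were compared by two-sided exact permutation tests over libraries (F1) or line means (F7), with adjustment over 8 tests. The scripts were tested on simulated data. Alternatives were DESeq2 1.42.0, other scalings, no minimum count, fewer groups, another MPV, single small lines, a replicate block and leaving out each library.

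Members named were, for each comparison, up to 3 of the largest rises and 3 of the largest falls among those called whose groups did not overlap and whose higher group averaged 50 normalized counts, members called both between parents and between reciprocal F1 (none), the 6 plastid and 6 mitochondrial members with the most counts, and the listed genes that the annotation named (ATCG00670). The others named were chosen after their values were seen. Members and lists were chosen with earlier results of these data known. The fit of both crosses, the order of line means and the omission of 3 libraries were chosen after seeing the data. Names come from notes in the TAIR10.1 annotation and from the study; groups by role and sequences of the members were not used here. Library totals limit precision, and counts of PCR reads without molecular identifiers are not independent molecules. Deviations of same-numbered libraries from their group means had a correlation over 0.1 in 21 of 63, 78 of 198 and 33 of 108 pairs. Differently numbered libraries were not set beside these, so a batch shared by number was not tested. The labels do not say that the numbers pair the samples, and no pairing was assumed.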

Additional observations from a re-analysis of the deposited data

Results flagged for a closer look

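Values far from the others of their set were looked for in 80 sets (18 named members and the organelle shares, in the F1 libraries and the Hybrid Mimic line means of each cross), where chance sets apart about 1 set in 20. There were 5. In Ws/Ler Hybrid Mimics, WL_HM3 had a line mean of 263 normalized counts of ATCG00680. In the Col/Ler F1, ColxLer replicate 2 was lowest for ATMG00670 with 15.2. Among the Col/Ler Hybrid Mimics, CL_HM4 had line means of 775 for ATCG00020, 64.7 for ATMG00030 and 49.4 for ATMG00090, each above the other 3 lines.

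The effect of Hybrid Mimics against small lines differed between the crosses, by the test of the difference itself, for 5 members named for this comparison. Over all members it differed for 22 of 46, near the share of all genes (43.5%), and the 5 had been named for a large fold change in 1 of the crosses. The log2 fold change in Ws/Ler minus that in Col/Ler was 0.82 for ATCG00170, 1.12 for ATCG00180 and 1.57 for ATCG00790. It was -0.73 for ATCG00470 and -0.78 for ATCG00480.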

How the results depend on the processing

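Members called between Ws and Ler numbered 8, 3 with only these groups in the fit, and 5 to 16 when 1 library was left out. No member was called between the Ws/Ler F1 and the MPV, but 1 was with DESeq2 and 1 with the MPV taken on the log2 scale, in both cases ATCG00670. The 1 member called between the Col/Ler F1 and the MPV, ATMG00670, gave a count of 0 with no minimum count, with library totals, with own-sum scaling, with the replicate block, with only the groups compared, and on leaving out any library (0 to 0). Of the 33 members called between Col/Ler Hybrid Mimics and small lines, 19 were left with own-sum scaling and 19 with cl_sml1 alone. The summed plastid share of Ws/Ler Hybrid Mimics minus small lines was 0.00449 percentage points without the member with the most counts (exact permutation p = 0.0278), and the summed mitochondrial share of Col/Ler Hybrid Mimics minus small lines was -0.00325 with CL_HM5 and CL_HM6 included (exact permutation p = 0.0357). Of the mitochondrial members in that share, 5 reached the minimum in Col/Ler only in small line libraries. The causes were not tested.

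Among the members called, directions turned under own-sum scaling or against 1 small line. With own-sum scaling the log2 fold change in Ws/Ler Hybrid Mimics was -0.0508 for ATCG00120 and -0.19 for ATCG00480. In Col/Ler Hybrid Mimics it was -0.0313 for ATCG00150, -0.0483 for ATCG00340, -0.0529 for ATCG00350, -0.0023 for ATCG00490, -0.0265 for ATCG00740, -0.0089 for ATCG00790, 0.11 for ATMG00030 and 0.30 for ATMG01390. Against wl_sml1 alone it was -0.0151 for ATCG00480 and -1.13 for ATMG00670. The replicate block, with libraries that share a replicate number, changed no other count by over 1.5 times. With it, the members called between Hybrid Mimics and small lines were 30 in Ws/Ler and 33 in Col/Ler. Between Ws and Ler they were 7. Leaving out 1 library gave 27 to 31 members called in Ws/Ler Hybrid Mimics and 27 to 37 in Col/Ler Hybrid Mimics. The summed mitochondrial share changed sign in tests that passed no threshold. For Ws/Ler Hybrid Mimics minus small lines it was -0.000381 percentage points without the member with the most counts, and -0.000156 to 0.000358 on leaving out 1 library. For the Ws/Ler F1 minus parents it was -0.000401 to 0.000316 on leaving out 1 library. Only 9 plastid and 2 mitochondrial members had 50 counts or more in every library.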
